A study of Mus musculus with 6 samples.

Results

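The Polycomb repressive complex genes described here are 10 genes, taken as every probe set of the array table that the platform annotation pairs with exactly 1 of the symbols Ezh1, Ezh2, Eed, Suz12, Jarid2, Rbbp4, Rbbp7, Cbx2, Cbx7 and Ring1. That rule found 28 of the 45037 probe sets that are not controls. The rule itself used no measured value, but the members were chosen with earlier results of these data known. Tests per gene used 1 probe set a gene, the one that was brightest on average across the 6 arrays, so the 10 members are 10 of 18193 genes. The study sorted tumour-propagating cells (TPCs) and a second fraction labelled non-TPCs from mice with small cell lung cancer, a neuroendocrine lung tumour. The sort used staining for CD24, CD44 and EpCAM. All 6 samples came from Rb/p53/p130 triple knockout mice of a mixed C57BL/6;129Sv/J background, whose tumours were harvested 6 to 7 months after infection with Adeno-Cre, an adenovirus that delivers the recombinase. The 3 mice, numbered 1127, 920 and 0107, gave 1 TPC and 1 non-TPC array each, and the labels give both fractions the same genotype and no treatment. Adeno-Cre deletes genes only in the cells it infects, and the deletions were not measured in either fraction here. The labels and files used here give no sorting gates.

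Polycomb proteins keep genes silent by modifying histones. Polycomb repressive complex 2 (PRC2) methylates H3K27, a lysine in the tail of histone H3, through the enzyme EZH2 or its relative EZH1, which work together with EED, SUZ12 and the histone-binding proteins RBBP4 and RBBP7. Polycomb repressive complex 1 (PRC1) carries CBX proteins that recognise methylated H3K27 and a RING1 protein that attaches ubiquitin to histone H2A. EZH2 is best known from dividing cells and EZH1 from resting ones, and cells that lack RB proteins have active E2F factors, which are known to drive Ezh2. Small cell lung cancer is a tumour with RB loss in which EZH2 is known to be abundant.

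Promoter sequences are shown for the catalytic pair Ezh2 and Ezh1 and for Suz12, the other member with an E2F-type match. In the probe sets used per gene, the within-mouse differences of Ezh2 and Ezh1 had opposite signs. The sequences come from the RefSeq gene table of build GRCm38.p6, whose windows run from 250 bases before to 50 bases after a gene's start. Capitals mark E2F-type matches (TTTCCCGC, TTTCGCGC, TTTGCCGC or TTTGGCGC) and CCAAT boxes, both searched on both strands, with no overlap between them. The Ezh2 stretch is chr6:47595001-47595150 on the minus strand and the Ezh1 stretch chr11:101226434-101226583 on the minus strand, each from 120 bases before to 30 bases after the start. The Suz12 stretch is chr11:79992856-79993055 on the plus strand and ends 50 bases before the start.
Ezh2: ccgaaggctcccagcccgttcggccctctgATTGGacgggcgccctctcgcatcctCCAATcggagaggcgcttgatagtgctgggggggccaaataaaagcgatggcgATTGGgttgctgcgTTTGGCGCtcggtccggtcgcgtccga
Ezh1: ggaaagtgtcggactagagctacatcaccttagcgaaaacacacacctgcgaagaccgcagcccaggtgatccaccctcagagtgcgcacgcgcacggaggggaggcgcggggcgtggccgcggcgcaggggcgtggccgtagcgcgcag
Suz12: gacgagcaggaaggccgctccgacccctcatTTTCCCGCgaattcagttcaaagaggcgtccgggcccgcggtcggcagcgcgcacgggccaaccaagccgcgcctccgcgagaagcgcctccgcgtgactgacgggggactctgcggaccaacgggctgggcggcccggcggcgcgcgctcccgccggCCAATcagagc
The Ezh2 window held 1 E2F-type match, beginning 4 bases after the start, and 3 CCAAT boxes. The Suz12 window held 1 E2F-type match, 211 bases before the start, and 1 CCAAT box. The Ezh1 window held no match of either kind. Promoter windows were found for 9 of the 10 members, 10 windows in all with 2 for Jarid2. An E2F-type match stood in 2 of these 10, against 2.26% of all 32851 windows, and a CCAAT box in 8 of 10, against 37.41%. The windows were not matched for base composition. G and C made up 54.7% to 75.7% of each member window, against a median of 52.7% over all windows. The part of base composition in these shares was not tested. The matches are letters in a window and say nothing of binding.

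Expression was measured as log2 probe set signals (RMA values). Each difference is the TPC value minus the non-TPC value, so that 1 stands for 2-fold. No Polycomb member differed between TPCs and non-TPCs past the test (limma, adjusted p under 0.05 over all genes). In all, 0 of 10 members were lower, against 0.0605% of all genes, and 0 were higher, against 0% of all genes. At an unadjusted p under 0.05 there were 0 members, against 6.48% of all genes. The 10 differences ranged from -0.08 for Ezh2 to 0.33 for Jarid2, with a median of 0.10, beside a median of 0.04 for all genes. They were above 0 in 7 of 10 members, against 58.1% of all genes. Their limma adjusted p ranged from 0.873 to 0.989. The 95% intervals of all 10 differences lay between -0.75 and 0.79, inside a 2-fold difference in either direction, and 14800 of 18193 genes had intervals inside that range. The p-values set each difference against the spread between 3 mice per fraction, and the number of arrays limits the precision.

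**Figure D1:**
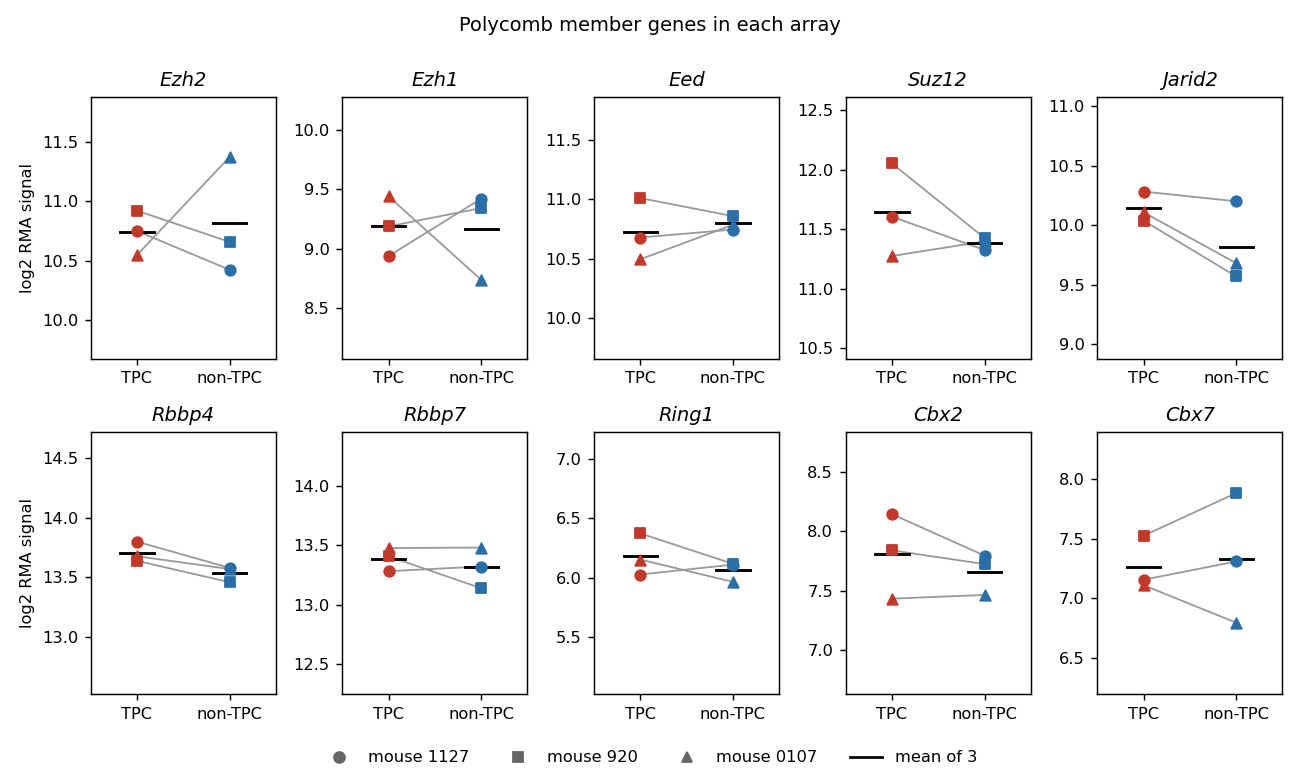
Log2 RMA signal (vertical axis, the same span of 2.2 in every panel) of the 10 Polycomb member genes in the 3 TPC arrays (red, left) and the 3 non-TPC arrays (blue, right), with the arrays of a mouse joined by a line and black bars for the mean of 3. Only in the Rbbp4 panel do all TPC arrays lie above all non-TPC arrays, and in the Ezh2 and Ezh1 panels the line of mouse 0107 runs against those of the other mice.

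In the probe sets used per gene, the catalytic subunits of PRC2 showed opposite differences within each mouse. Ezh2, the main H3K27 methyltransferase, was at 10.75, 10.92 and 10.55 in the TPCs of mice 1127, 920 and 0107, against 10.42, 10.66 and 11.37 in their non-TPCs. Its single probe set had TPC arrays within 0.37 of each other, and the non-TPC array of mouse 0107 was the highest of the 6. Ezh2 averaged 10.74 ± 0.19 in TPCs and 10.82 ± 0.49 in non-TPCs (n = 3 each, ± SD), a difference of -0.08 (SE 0.26, 95% interval -0.70 to 0.55, limma adjusted p = 0.971). Ezh1, the alternative methyltransferase, was at 8.94, 9.19 and 9.44 in the TPCs of mice 1127, 920 and 0107, against 9.42, 9.34 and 8.74 in their non-TPCs. Its lowest array was the non-TPC array of mouse 0107, in which Ezh2 was highest. Ezh1 averaged 9.19 ± 0.25 in TPCs and 9.17 ± 0.37 in non-TPCs (n = 3 each, ± SD), a difference of 0.02 (SE 0.23, 95% interval -0.53 to 0.57, limma adjusted p = 0.989).

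Within mice 1127, 920 and 0107, Ezh2 differed by 0.33, 0.26 and -0.82 and Ezh1 by -0.48, -0.15 and 0.70. The sign of both genes in mouse 0107 was the opposite of that in the other mice. A single mouse has 1 array per fraction, so the difference between mice was not tested. With that mouse's non-TPC array left out, the mean difference was 0.20 for Ezh2 and -0.19 for Ezh1, neither past the test. Mycn, a MYC family gene, stood at 10.64 in the TPCs and 13.70 in the non-TPCs of mouse 0107, against 6.94 to 7.44 in the 4 arrays of the other mice. A second Ezh1 probe set, 1418290_a_at, was at 7.01, 6.31 and 6.78 in TPCs, against 6.93, 7.10 and 6.12 in non-TPCs of the same mice. It shared the higher TPC value in mouse 0107 (0.66) and the lower one in mouse 920 (-0.79), but not the sign of mouse 1127 (0.08). The other Ezh1 probe sets, 1429630_at and 1429629_at, lay below the first quartile of signal in 6 and 5 of the 6 arrays.

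Proliferation genes were read beside Ezh2. Of 28 listed replication and mitosis genes 26 were measured, and 0 passed the test in either direction (median difference -0.01). Within mice 1127, 920 and 0107 their medians were 0.13, 0.25 and -0.48. In TPCs of mouse 920, 24 of the 26 were higher than in non-TPCs, and in TPCs of mouse 0107, 22 of the 26 were lower. For comparison, 10513 of 18193 genes were higher in TPCs of mouse 920 and 9751 were lower in TPCs of mouse 0107. Ezh2 had the sign of the proliferation median in each of the 3 mice and the brightest Ezh1 probe set the opposite sign. The medians of all genes, 0.07, 0.05 and -0.03, had the same signs as the proliferation medians. Ezh1 probe set 1418290_a_at shared the sign of the proliferation median in mouse 1127 (0.08). The proliferation genes with the smallest p were Mcm2, part of the replicative helicase, with a difference of 0.29 (limma adjusted p = 0.81), the ribonucleotide reductase subunit Rrm2 with 0.35 (0.872) and the topoisomerase Top2a with -0.39 (0.873). The part of proliferation in the Ezh2 and Ezh1 values was not tested.

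**Figure D2:**
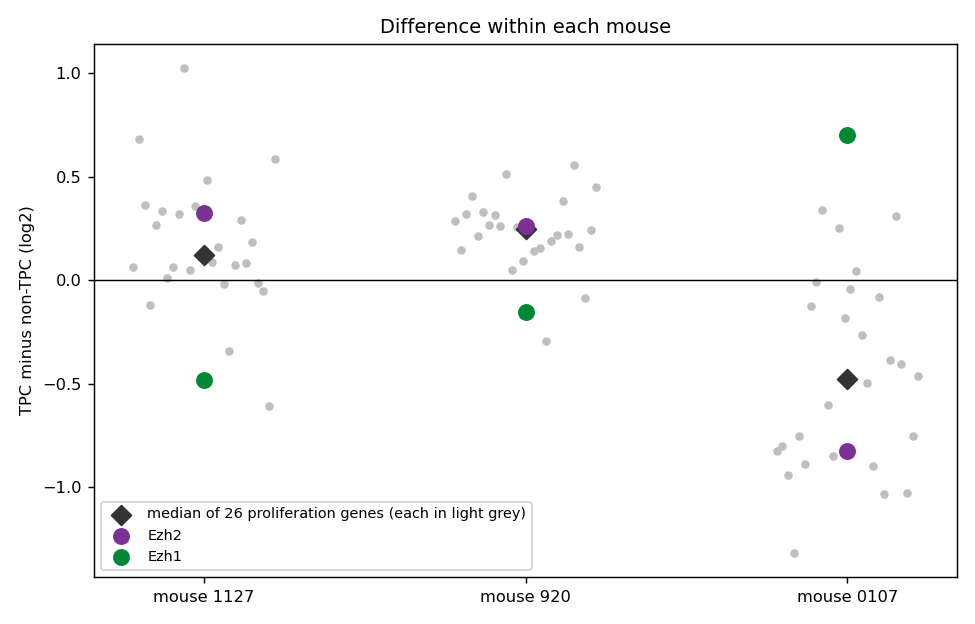
TPC minus non-TPC difference (log2, vertical axis) within each mouse for Ezh2 (purple), Ezh1 (green), 26 proliferation genes (light grey, spread sideways for sight) and the median of those (dark diamond). In mouse 0107 Ezh2 stands at -0.82, the proliferation median at -0.48 and Ezh1 at 0.70.

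The profiles most like that of Ezh2 across the 6 arrays, each centred on its own mean and taken among genes above the median level, were those of Pwp1, Syncrip, Zbtb18, Prr11 and Cks1b. The root mean square difference from Ezh2 was 0.06 for Pwp1, a WD-repeat protein, 0.07 for the RNA-binding protein gene Syncrip and 0.08 for Zbtb18, Prr11 and Cks1b, the last a partner of cyclin-dependent kinases. In mouse 0107 their differences ranged from -1.08 for Cks1b to -0.65 for Prr11. The profiles most like that of Ezh1 were those of the syntaxin gene Stx4a (0.06), the calpain gene Capn7 (0.07), Glb1l2 (0.07), the lysosomal hydrolase gene Aga (0.08) and Bphl (0.08). These are likenesses over 6 arrays of 3 mice, which share mice and fractions, and the genes were picked for them.

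The other core and accessory subunits of PRC2 did not pass the test either. Eed, whose product binds methylated H3K27 and stimulates the enzyme, was at 10.68, 11.01 and 10.50 in TPCs of mice 1127, 920 and 0107, against 10.75, 10.86 and 10.79 in non-TPCs. The TPC arrays spread more widely than the non-TPC arrays and enclosed them. Eed averaged 10.73 ± 0.26 in TPCs and 10.80 ± 0.06 in non-TPCs (n = 3 each, ± SD; difference -0.07, 95% interval -0.46 to 0.32, limma adjusted p = 0.96). The other Eed probe set, 1453830_at, differed by 0.20 (limma adjusted p = 0.964), with 0.82 in mouse 920 and -0.33 in mouse 0107.

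Suz12, which holds PRC2 together, was at 11.61, 12.05 and 11.27 in TPCs of mice 1127, 920 and 0107, against 11.32, 11.43 and 11.40 in non-TPCs. TPC values were higher in mice 1127 and 920 and lower in mouse 0107, and the groups overlapped. Suz12 averaged 11.64 ± 0.39 in TPCs and 11.38 ± 0.05 in non-TPCs (n = 3 each, ± SD; difference 0.26, 95% interval -0.24 to 0.76, limma adjusted p = 0.898). All 6 Suz12 probe sets had a mean difference above 0, from 0.10 to 0.51, where 59.2% of all probe sets did, and 0 of the 6 passed the test. These probe sets read the same RNA samples and some share a source sequence, so they are no replicates. Probe set 1420020_at, with a difference of 0.25, was higher in TPCs of all 3 mice, by 0.66, 0.02 and 0.07. The largest difference among all 28 member probe sets was that of 1449661_at, which was at 6.74, 6.49 and 6.42 in TPCs, against 5.96, 5.68 and 6.47 in non-TPCs (difference 0.51, 95% interval -0.03 to 1.05, limma adjusted p = 0.924 over all probe sets). It was higher in TPCs of mice 1127 and 920, and in mouse 0107 the difference was -0.06. The probe set 1420022_s_at, with the smallest unadjusted p of the 28 (0.0544 in limma), had the same pattern, at 7.08, 6.83 and 6.69 in TPCs, against 6.33, 6.41 and 6.71 in non-TPCs.

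The widest spans of mouse means among the Suz12 probe sets were those of 1427253_s_at and 1452364_at. Probe set 1427253_s_at was at 10.63, 10.70 and 9.63 in TPCs of mice 1127, 920 and 0107, against 10.20, 10.66 and 9.69 in non-TPCs, and 1452364_at was at 9.21, 9.28 and 8.21, against 8.77, 9.29 and 8.35. Both fractions of mouse 0107 were lowest in both, and the mouse means spanned 1.02 and 1.01, while the fraction differences were 0.13 and 0.10. Both were designed from 1 source sequence, BG066534. The brightest Suz12 probe set had a span of mouse means of 0.40 and a fraction difference of 0.26. Mouse means spanned more than the fraction difference in 24 of the 28 member probe sets, and in 35724 of all 45037 probe sets. A range of mouse means and a single difference are unlike measures, so these counts do not weigh mouse against fraction.

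Jarid2, an accessory subunit that helps PRC2 find its targets, was at 10.28, 10.04 and 10.11 in TPCs of mice 1127, 920 and 0107, against 10.20, 9.57 and 9.68 in non-TPCs. TPC values were higher in all 3 mice, by 0.08, 0.47 and 0.43, although the non-TPC array of mouse 1127 lay above TPC arrays of the other mice. Jarid2 averaged 10.14 ± 0.13 in TPCs and 9.82 ± 0.34 in non-TPCs (n = 3 each, ± SD; difference 0.33, SE 0.20, 95% interval -0.14 to 0.79, limma adjusted p = 0.873). With mouse as a replicate block its limma adjusted p was 0.556, the smallest among the members and not past the test. The other Jarid2 probe sets differed by 0.18 (1422697_s_at) and 0.21 (1450710_at), and in mouse 0107 by -0.04 and -0.36, so the direction in that mouse held in 1 of 3 probe sets.

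Rbbp4 encodes a histone-binding protein that serves PRC2 and other chromatin complexes. It was at 13.80, 13.64 and 13.68 in TPCs of mice 1127, 920 and 0107, against 13.58, 13.46 and 13.57 in non-TPCs. All TPC arrays lay above all non-TPC arrays, which held for 1 of 10 members, against 6.71% of all genes. The difference was small, 0.17 (SE 0.12, 95% interval -0.12 to 0.46), with means of 13.70 ± 0.08 in TPCs and 13.54 ± 0.07 in non-TPCs (n = 3 each, ± SD), and did not pass (limma adjusted p = 0.887). This probe set, 1434892_x_at, lies near the top of the signal range, and its suffix marks probes that can match other transcripts. Probe set 1454791_a_at was at 10.95, 10.85 and 10.08 in TPCs, against 10.28, 10.29 and 10.06 in non-TPCs, a difference of 0.41 (limma adjusted p = 0.954 over all probe sets). The groups overlapped there, since the TPC array of mouse 0107 lay below the non-TPC arrays of the other mice.

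The widest separation of mice among the member probe sets was that of Rbbp4 probe set 1454875_a_at, which was at 7.94, 7.28 and 6.15 in TPCs of mice 1127, 920 and 0107, against 7.41, 6.81 and 5.96 in non-TPCs. The order of the mice was the same in both fractions, and the mouse means spanned 1.62. Within each mouse the TPC array was higher, by 0.54, 0.47 and 0.20, and with mouse as a replicate block the unadjusted limma p was 0.0307 and the adjusted p 0.51. The remaining Rbbp4 probe set, 1456260_at, differed by 0.16 and was higher in TPCs of 2 mice. All 4 Rbbp4 probe sets had mean differences above 0.

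Rbbp7, the close relative of Rbbp4, was at 13.28, 13.41 and 13.48 in TPCs of mice 1127, 920 and 0107, against 13.32, 13.14 and 13.48 in non-TPCs. Fractions of mice 1127 and 0107 were nearly level. The difference was 0.08 (SE 0.14, 95% interval -0.27 to 0.42, limma adjusted p = 0.945), and the second probe set, 1415775_at, differed by 0.03.

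None of the PRC1 members Ring1, Cbx2 and Cbx7 differed past the test. Ring1, which encodes one of the PRC1 ubiquitin ligases, was at 6.03, 6.37 and 6.15 in TPCs of mice 1127, 920 and 0107, against 6.11, 6.12 and 5.97 in non-TPCs (difference 0.12, 95% interval -0.22 to 0.46, limma adjusted p = 0.92). It was the only member whose tested probe set lay under the median of the 18193 genes, 6.91. Cbx2, a CBX protein that also compacts chromatin, was at 8.14, 7.84 and 7.43 in TPCs, against 7.79, 7.72 and 7.46 in non-TPCs of the same mice. Its order of mice was the same in both fractions, and the difference was 0.14 (95% interval -0.36 to 0.65, limma adjusted p = 0.935). Cbx7, a CBX protein known for silencing the Ink4a/Arf locus, was at 7.16, 7.53 and 7.11 in TPCs, against 7.31, 7.88 and 6.80 in non-TPCs. Mouse 920 was highest in both fractions, the mouse means spanned 0.75, and the difference was -0.07 (95% interval -0.75 to 0.62, limma adjusted p = 0.975). Like Ezh1, Cbx7 was lower in TPCs of mice 1127 and 920 (-0.15 and -0.36) and higher in those of mouse 0107 (0.31). The second Cbx2 probe set, 1422059_at, lay below the first quartile of signal in all 6 arrays and differed by 0.04. The other Cbx7 probe sets, 1420039_s_at and 1449713_at, differed by 0.09 and 0.04 and lay below that quartile in 1 and 3 arrays, and Ring1 had a single probe set.

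**Figure D3:**
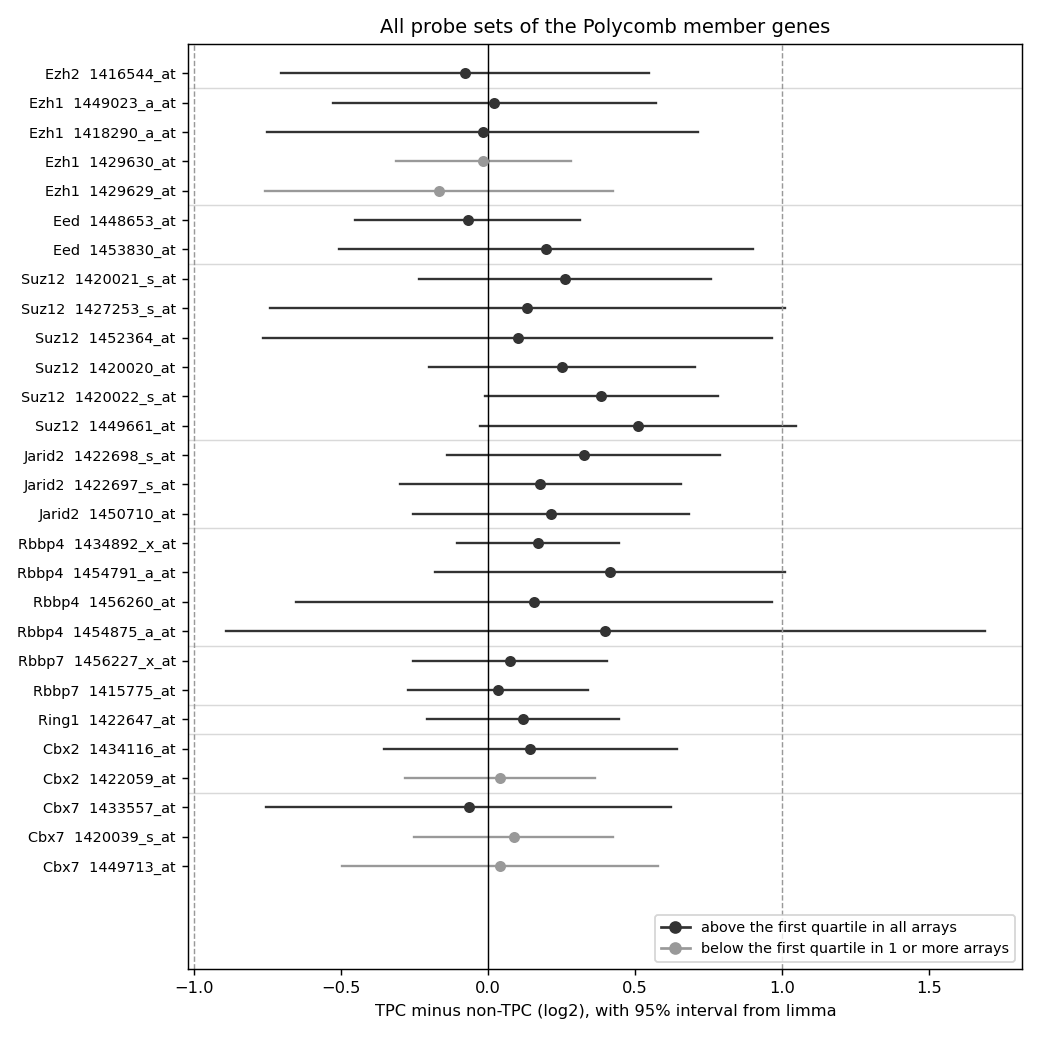
TPC minus non-TPC difference (log2, horizontal axis) of all 28 probe sets of the 10 members, with points for the mean difference of 3 TPC and 3 non-TPC arrays and bars for its 95% interval from limma. Every interval includes 0, 24 of the 28 lie inside a 2-fold difference (dashed lines at -1 and 1), and grey marks the 5 probe sets below the first quartile of signal in 1 or more arrays.

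Across the 28 probe sets, 0 passed the test over all 45037 (limma adjusted p from 0.915 to 0.998), where 0.0244% of all probe sets were lower and 0% higher. At an unadjusted p under 0.05 there were 0 of 28, against 5.46% of all probe sets. Higher values in TPCs of all 3 mice were seen in 5 of 28 probe sets, against 19.3% of all probe sets, and in 2 of 10 genes (Jarid2 and Rbbp4), against 19.7% of all genes. Lower values in all 3 mice were seen in 0 of 10 genes, against 13.8% of all genes. The shares with higher values were near those of the whole array. The span of mouse means exceeded the difference between fractions in 9 of 10 members, Rbbp4 being the exception, and in 78.5% of all genes.

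The other genes of the Polycomb system gave the same count of 0. Of 8 measured other PRC2 subunits 0 passed (median difference 0.05). Lcor, a PRC2-associated corepressor gene, differed by 0.45 (limma adjusted p = 0.876), Mtf2, a Polycomb-like protein that recruits PRC2, by -0.31 (0.886), Ezhip, an inhibitor of PRC2, by 0.19 (0.887) and Phf19, another Polycomb-like protein, by 0.20 (0.901). Ezhip lay between 3.84 and 4.23 in all arrays, below their first quartiles. Of 10 measured other canonical PRC1 subunits 0 passed (median 0.12). The polyhomeotic gene Phc3 differed by -0.40 (limma adjusted p = 0.773), with -0.585, -0.005 and -0.614 in mice 1127, 920 and 0107, so it was nearly level in mouse 920. Lower values in all 3 mice were seen in 1 of these 10 genes, against 13.8% of all genes. The mean of the 2 Phc3 probe sets differed by -0.24. The related gene Phc2 differed by 0.37 (0.909). Pcgf2, which pairs with a RING1 protein, differed by 0.27 (0.876) and the CBX gene Cbx6 by 0.33 (0.886).

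Of 13 measured variant PRC1 subunits 0 passed the test over all genes (median 0.01). Bcor, a corepressor and partner of PCGF1, was at 7.88, 8.26 and 7.77 in TPCs of mice 1127, 920 and 0107, against 7.45, 7.59 and 7.54 in non-TPCs. The groups did not overlap, and the difference of 0.45 did not pass (limma adjusted p = 0.71). Every TPC array lay above every non-TPC array in 1 of these 13 genes, against 6.71% of all genes. Every TPC array lay below in 1 of the 13, against 5.91%. Mga, a MAX partner in the PCGF6 complex, was at 8.78, 8.56 and 8.63 in TPCs, against 9.14, 8.79 and 9.11 in non-TPCs, again without overlap (difference -0.35, limma adjusted p = 0.773). These values are of the brightest of 5 Mga probe sets, and the mean of all 5 differed by -0.04. Auts2 differed by -0.79 (limma adjusted p = 0.873), the mean of 0.17, -0.24 and -2.29 within mice 1127, 920 and 0107. This is the brightest of 5 Auts2 probe sets, and the mean of all 5 differed by -0.27. Bcorl1, a relative of Bcor, differed by 0.29 (0.889).

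The complex that removes ubiquitin from histone H2A, and thus opposes PRC1, had 0 of 10 measured members past the test (median -0.02). The smallest p in it belonged to Ogt, the O-GlcNAc transferase, at 9.83, 9.85 and 9.98 in TPCs of mice 1127, 920 and 0107, against 10.47, 10.39 and 10.55 in non-TPCs. The TPC values were lower in each mouse, by a nearly constant amount, and the groups did not overlap. Every TPC array lay below every non-TPC array in 1 of the 10 genes of this complex, against 5.91% of all genes. Lower values in all 3 mice were seen in 2 of the 10, against 13.8% of all genes. The Ogt difference of -0.58 (SE 0.12) had an unadjusted limma p of 0.00252 and did not pass over all genes (limma adjusted p = 0.348, and 0.259 with the replicate block). Asxl3 differed by -0.56 (0.825), with -1.39 in mouse 0107, Kdm1b by 0.32 (0.873) and Asxl2 by 0.24 (0.886). The H3K27 demethylases Kdm6a and Kdm6b differed by 0.21 (0.918) and -0.14 (0.963).

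Hox genes, the classical Polycomb targets, had 0 of 33 measured members past the test (median 0.08), and 6 of the 33 had a mean above the all-gene median. Hoxb5 was at 9.41, 9.36 and 9.58 in TPCs of mice 1127, 920 and 0107, against 8.63, 9.02 and 8.84 in non-TPCs. The groups did not overlap, and the difference of 0.62 (SE 0.15) did not pass (limma adjusted p = 0.454). Hoxd12 (difference 0.35, adjusted p = 0.743), Hoxa3 (0.19, 0.877) and Hoxc4 (-0.22, 0.887) lay between 3.34 and 5.95. In all, 4 of 33 Hox genes had every TPC array above every non-TPC array, against 6.71% of all genes, and 1 every TPC array below, against 5.91%.

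**Figure D4:**
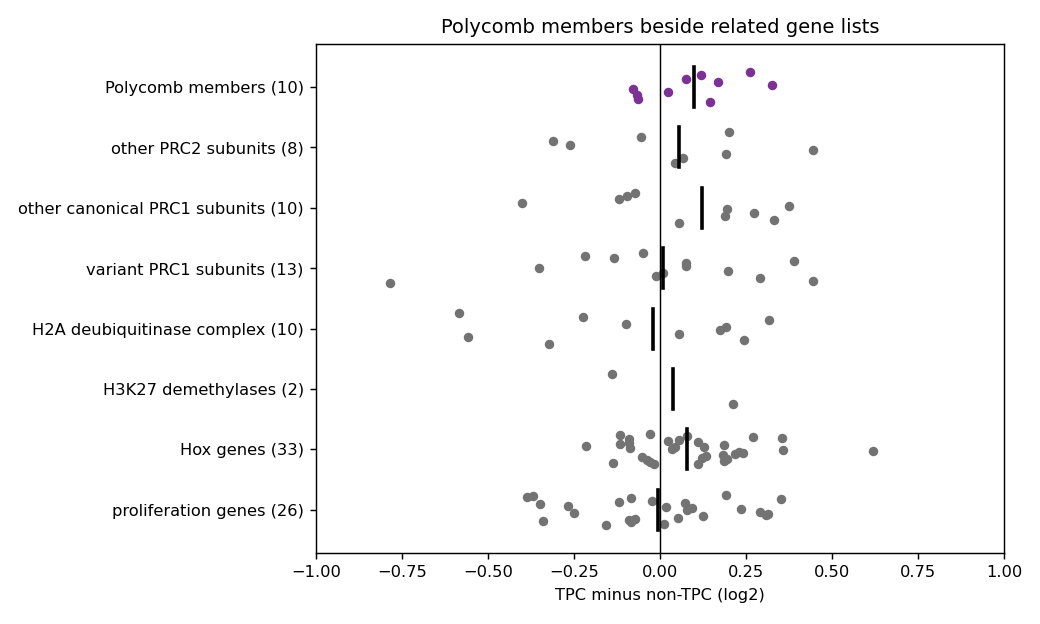
TPC minus non-TPC difference (log2, horizontal axis) of each measured gene in the Polycomb members (purple) and in related lists (grey), with the number of genes in parentheses and a black bar for each list's median. The medians lie between -0.02 and 0.12, and no gene in these lists passed the test.

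Marker genes of other cell types were read in both fractions. In bulk samples fewer cells of a type and less RNA per cell cannot be told apart. Markers of alveolar type 2 cells had 2 of 9 members past the test, both lower in TPCs, against 0.0605% of all genes. Mean differences were below 0 in 9 of the 9, and 8 were lower in all 3 mice, against 13.8% of all genes. The 2 that passed were the surfactant genes Sftpa1 (-3.41, limma adjusted p = 0.00374) and Sftpc (-2.20, 0.0238). Sftpc did not pass with mouse as a replicate block (limma adjusted p = 0.051). With 1 array or 1 mouse left out, Sftpc did not pass in 7 of 9 fits and Sftpa1 in 3 of 9. The lung chemokine gene Cxcl15 had the next smallest p of that list (-2.73, limma adjusted p = 0.285). Their summed signal, on the log2 scale, ranged from 11.07 to 11.21 in TPCs and from 12.75 to 13.58 in non-TPCs. The summed signal of 12 fibroblast markers ranged from 10.88 to 11.89 in TPCs and from 12.31 to 14.86 in non-TPCs, and that of 15 leukocyte markers from 11.54 to 12.50 in TPCs and from 12.31 to 13.56 in non-TPCs. For 11 endothelial markers the ranges were 10.77 to 11.22 in TPCs and 11.13 to 11.54 in non-TPCs. None of the fibroblast, leukocyte and endothelial markers passed the test. Mean differences were below 0 in 12 of 12, 13 of 15 and 11 of 11 of them, against 7619 of 18193 genes. The other 2 leukocyte markers were above 0. Lower values in all 3 mice were seen in 10, 12 and 5 of them, against 13.8% of all genes. The fibroblast markers with the smallest p were Sparc (-3.77, limma adjusted p = 0.0978), Mgp (-3.87) and Lum (-3.07). Among leukocyte markers they were Lcp1 (-2.20, 0.169), Tyrobp (-1.38) and Ptprc (-2.08). Among endothelial markers they were Kdr (-0.91, 0.628), Cldn5 (-2.13) and Cdh5 (-1.21, and 0.04 in mouse 920). The summed signal of 13 measured neuroendocrine markers was 14.84 to 15.09 in TPCs and 14.42 to 15.01 in non-TPCs, with 0 past the test (median difference 0.18). Mean differences were above 0 in 8 of the 13 and below 0 in 4, where 58.1% of all genes were above 0. Those with the smallest p were Insm1 (0.75, limma adjusted p = 0.795), Ddc (0.49, 0.862) and Chga (0.83, 0.873, and -0.04 in mouse 920). The Polycomb members' summed signal was 14.97 to 15.05 in TPCs and 14.80 to 14.98 in non-TPCs. The part of the other cell types in the members' values was not tested.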

How the data were processed

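RNA of 6 sorted samples was hybridised to 1-colour Affymetrix arrays. The deposited values are on a log2 scale and came from RMA (background correction, quantile normalisation, summary of probes), as the submitters' processing notes name it. The log base was read from the values, 2.70 to 14.81, and the sources used here state neither the RMA version nor the probe definitions. Of 45101 probe sets 64 were controls, 34945 had 1 gene symbol, 932 several and 9160 none, and symbols were updated through Entrez identifiers to RefSeq GRCm38.p6. Probe sets with several symbols name no gene here. The labels name no test. The test between fractions was that of limma 3.58.1 (R 4.3.3, two-sided, Benjamini-Hochberg over all 18193 genes or 45037 probe sets, threshold 0.05), fitted on fraction alone and checked on simulated data. The simulated arrays were independent, with no effect of mouse and with planted differences larger than those of the members. That check therefore cannot show how the fit suits paired arrays or small differences. Both fractions of a mouse come from 1 animal, so the mouse numbers pair the samples, and across genes the deviations of its 2 arrays from the means of their fractions had a correlation of 0.30 in mouse 1127, 0.46 in mouse 920 and 0.36 in mouse 0107. A fit that takes mouse as a replicate block was an alternative.

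All members are named and all their probe sets described. From each related Polycomb list the up to 4 genes with the smallest p are named, from proliferation and cell type lists up to 3, and for Ezh2 and Ezh1 the 5 genes with the most similar centred profile. The members and lists were chosen with earlier results of these data known. There is no read depth on arrays, and precision is limited by having 3 arrays per fraction.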

Additional observations from a re-analysis of the deposited data

How the results depend on the processing

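No Polycomb member and none of the 28 member probe sets passed the test in any alternative run that included them. The runs on the mean of probe sets and without _s_at and _x_at probe sets tested genes only. The run above the median level left out Ring1 as a gene and 7 member probe sets. Blocking on mouse changed no member call, with 13 genes called in all beside 11. The smallest limma adjusted p was 0.556 for a member and 0.28 for another member probe set. The signs of several members depended on the arrays used, and the cause was not tested. Over 17 alternatives the members kept their sign in 152 of 169 values, and over 15 the other 18 probe sets in 226 of 263. The number of member probe sets with a mean difference above 0 was 22 of 28 in the main fit, where 59.2% of all probe sets were. It was 17 to 24 with an array or mouse left out. The 28 probe sets belong to 10 genes and read the same RNA samples, so they are no replicates. All called genes were lower in TPCs. There were 39 with mouse as a random block, 4 with the mean of a gene's probe sets, 7 without _s_at and _x_at probe sets where another existed, and 0 to 84 with an array or mouse left out. These were 0, 4 and 1 without mice 1127, 920 and 0107, 1, 2 and 1 without their TPC arrays, and 2, 30 and 84 without their non-TPC arrays. With the mean of probe sets the differences were -0.045 for Ezh1, 0.064 for Eed and 0.0207 for Cbx7, each a change of sign. Another quantile normalisation gave 0.032 for Ezh1 probe set 1418290_a_at, and centring the arrays gave 7e-04 for it and 0.0025 for 1429630_at. With an array or mouse left out, ranges that crossed 0 were -0.3178 to 0.2737 for Ezh1, -0.2802 to 0.2939 for Ezh2, -0.2094 to 0.0477 for Eed, -0.0215 to 0.1585 for Rbbp7, -0.0247 to 0.3304 for Cbx2, -0.3331 to 0.2115 for Cbx7, -0.0507 to 0.3485 for Kdm6a and -0.5564 to 0.1135 for Kdm6b. Among probe sets they were -0.3567 to 0.3668 (1418290_a_at), -0.3956 to 0.0884 (1429629_at) and -0.1105 to 0.0768 (1429630_at) for Ezh1, -0.1141 to 0.4936 (1453830_at) for Eed, -0.1143 to 0.4784 (1427253_s_at) and -0.1273 to 0.4455 (1452364_at) for Suz12, -0.0103 to 0.8855 (1454875_a_at) and -0.1955 to 0.3482 (1456260_at) for Rbbp4, -0.0585 to 0.0868 (1415775_at) for Rbbp7, -0.0987 to 0.1405 (1422059_at) for Cbx2, and -0.001 to 0.2262 (1420039_s_at) and -0.1472 to 0.2554 (1449713_at) for Cbx7. Of the other named genes, Sftpc did not pass with the block on mouse or with the mean of probe sets (-1.26, limma adjusted p = 0.0619), Lcp1 passed with mouse as a fixed (0.0333) or random block (0.0467), and Sparc with mouse as a random block (0.0373) or above the median level (0.0272). With an array or mouse left out, Sftpc did not pass in 7 of 9 cases and Sftpa1 in 3, while Sparc passed in 2 and Mgp and Cxcl15 in 1 each. No sample was tested as an outlier, since each fraction has 3 arrays.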
